A study of Mus musculus with 8 samples.

Results

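The TBC family of Rab regulators, chosen by gene symbol (every symbol that starts with Tbc1d and a digit, with Tbck, Usp6nl, Evi5, Evi5l, Rabgap1, Rabgap1l, Sgsm1, Sgsm2, Sgsm3 and Grtp1), held 40 of the 21532 genes of the deposited table. Proteins with a TBC domain are the main family of GTPase-activating proteins for Rab GTPases, the small G proteins that mark the membranes of the cell and direct vesicle traffic between them. A Rab is active while it holds GTP, and a TBC protein ends that state by supplying an arginine finger and a glutamine finger that speed the hydrolysis of GTP. In insulin target tissues such as muscle and fat the best known members are TBC1D1 and TBC1D4, which AKT phosphorylates downstream of the insulin receptor. The family was examined in liver RNA of male db/db mice, whose leptin receptor is defective and which develop obesity and diabetes. From 8 weeks of age the mice were given control (n = 4, control mice) or AF1 peptide (n = 4, AF1 mice) for 5 weeks, at 5 mg/kg body weight and 2 retro-orbital injections a week. AF1 peptide is a synthetic peptide derived from a part of estrogen receptor α (ERα), with some residues of that part left out. It is joined to a TAT sequence for entry into cells. What the control injection held is not given in the sources used here.

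Of the 40 members, 39 had a mean normalized count of at least 10 over the 8 mice, as did 15989 genes in all. The fortieth, Tbc1d21, a gene known for its expression in testis, had 0 to 2.16 normalized counts in control and 0 to 4.59 in AF1 mice and was not tested. The family was selected on the control against AF1 peptide values of 1 member, Tbc1d8, so that its values are given as a description with no test. The other members entered by their symbols alone.

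Recovered reads ranged from 23031880 to 45117528 per mouse, and the family held 8318 to 19839 reads of each library. All 6 hepatocyte markers examined were expressed, and their summed normalized counts were 2419800 to 2545610 in control and 1734290 to 2551300 in AF1 mice, lowest in AF1 peptide replicate 1. On the first principal component over the tested genes, AF1 peptide replicate 1 lay at 74.25 and the other 7 mice between -21.8 and 2.33. The summed macrophage markers of AF1 peptide replicate 1 (8 of 8 genes) were 2545 normalized counts, against 5536 to 6968 in control mice and up to 6639 in the other AF1 mice. In the same mouse the summed stellate cell (2976), endothelial (3965), lymphocyte (186) and neutrophil (28.0) markers were also below every control mouse. The endothelial sum was lower still in another AF1 mouse (3807). Its cholangiocyte markers (136) lay within the control range (123 to 233). Summed red blood cell markers (5 of 5 genes) were 34147 to 123375 in control and 27111 to 51923 in AF1 mice, lowest in AF1 peptide replicate 1. The part of these cells in the family's values was not tested. Values without AF1 peptide replicate 1 are given for Tbc1d8 and for some of the other members.

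The nearest relatives of Tbc1d8 by protein sequence were Tbc1d8b, Tbc1d9b and Tbc1d9, which share with it 55.5%, 54.4% and 51.9% of the aligned residues. The proteins were translated from coding sequences of GENCODE M21, and a global alignment over 1093, 1112 and 1119 residues gave these shares. Each protein of this group carries GRAM domains before the TBC domain. The arginine finger motif (isoleucine, any 2 residues, aspartate, any 2 residues, arginine) was matched in 31 of the 40 proteins, and 29 also held the glutamine finger motif (tyrosine, any residue, glutamine) 20 to 60 residues further on. The distance between both motifs was 38 to 42 residues over these 29 members, and 39 residues in Tbc1d8 and in each of the 3 relatives. The 9 members whose protein did not match the first motif letter by letter were Tbc1d7, Tbc1d16, Tbc1d19, Tbc1d20, Tbc1d23, Tbc1d24, Tbc1d25, Tbc1d31 and Tbc1d32.

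Promoter sequences of RefSeq (GRCm38.p6) were found for 33 of the 40 genes, and not for Tbc1d10c, Tbc1d16, Tbc1d17, Tbc1d19, Tbc1d30, Tbc1d31 and Tbc1d32. The stretch just upstream of the annotated start is printed for Tbc1d8, the member with the largest difference between the groups, and for Tbc1d8b and Tbc1d9, which are close to it in protein sequence but differ in level. These are chr1:39478779-39479005 on the minus strand (227 bases), chrX:139684746-139684963 on the plus strand (218 bases) and chr8:83165102-83165351 on the plus strand (250 bases). Tbc1d9b is not printed, because 0 bases of its window lay upstream of every annotated start of the gene. Capitals mark GC boxes (GGGCGG on either strand), which the factor SP1 binds.
Tbc1d8: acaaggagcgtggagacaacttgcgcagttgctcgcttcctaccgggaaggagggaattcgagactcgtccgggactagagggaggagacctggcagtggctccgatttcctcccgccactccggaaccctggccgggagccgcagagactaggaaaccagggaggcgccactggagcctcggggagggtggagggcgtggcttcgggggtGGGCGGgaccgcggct
Tbc1d8b: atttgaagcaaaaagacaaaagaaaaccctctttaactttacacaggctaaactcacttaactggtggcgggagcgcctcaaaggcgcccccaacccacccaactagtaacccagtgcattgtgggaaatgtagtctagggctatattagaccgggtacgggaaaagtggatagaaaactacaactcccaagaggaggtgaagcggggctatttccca
Tbc1d9: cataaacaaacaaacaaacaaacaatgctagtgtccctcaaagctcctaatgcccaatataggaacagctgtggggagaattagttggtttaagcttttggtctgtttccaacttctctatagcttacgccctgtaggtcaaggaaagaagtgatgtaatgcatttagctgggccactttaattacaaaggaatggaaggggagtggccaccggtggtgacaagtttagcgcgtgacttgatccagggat

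The Tbc1d8 stretch was rich in G and C (67.0%) with 19 CpG dinucleotides and held 1 GC box. Those of Tbc1d8b and Tbc1d9 had 47.7% and 44.0% G and C, with 6 and 4 CpG dinucleotides, and no GC box was matched in them (0 each). In the whole windows (250 bases before to 50 after a start) a GC box was matched in 25 of the 33 members and in 38.2% of 27025 genes. Tbc1d8 and its relative Tbc1d9b were among these members, and Tbc1d8b and Tbc1d9 were not. The median G and C content was 66.0% for the family and 53.3% for all genes. The full estrogen response element (GGTCA, any 3 bases, then TGACC) was in 0 of the 33 members and in 0.074% of all genes. Its half-site, AGGTCA on either strand, was in 7 members (18.1% of all genes), which were Sgsm1, Tbc1d14, Tbc1d20, Tbc1d21, Tbc1d22a, Tbc1d24 and Tbc1d9. The E-box CACGTG was in 9 members (8.09% of all genes), and neither motif was matched in Tbc1d8. A match describes letters only and is no evidence of binding.

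In db/db liver the family was led by Tbc1d20, which encodes a GTPase-activating protein for RAB1 and RAB18 at the endoplasmic reticulum. Levels were compared between genes as normalized counts per kilobase of coding sequence, over all 8 mice. Tbc1d20 had 1219 (1121 to 1548 over the mice). It was followed by Tbc1d24 (604, with a range of 369 to 753), Evi5 (593, 520 to 693), Tbc1d17 (531, 458 to 618) and Grtp1 (484, 429 to 540). These 5 genes made up 43.3% of the summed level of the family. At the other end, Tbc1d9 had 9.715, Tbc1d2 13.1 and Tbc1d30 22.0, so that the tested members spanned 125-fold. The relatives of Tbc1d8 were spread over this range, with Tbc1d9b at 275 and Tbc1d8b at 26.7. Of the 38 pairs of neighbours in the order of levels, 36 had ranges over the mice that overlapped. The exceptions were Tbc1d20 above Tbc1d24, and Tbc1d19 above Tbc1d25. With all merged exons as the length, Tbc1d20 was still first, and Tbc1d24 came eighth in place of second.

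**Figure D1:**
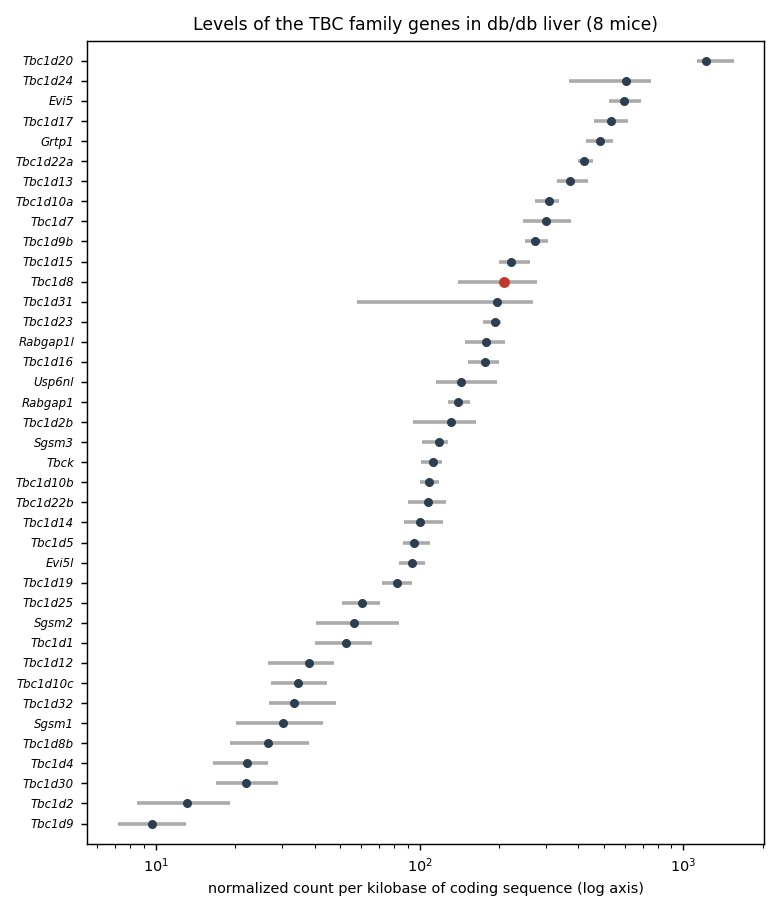
Levels of the 39 tested genes, as normalized count per kilobase of coding sequence on a log axis. Points are means of the 8 mice and bars run from the lowest to the highest mouse. Tbc1d8 (red) lies at 208 and Tbc1d20 leads at 1219.

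Tbc1d8 was higher in the livers of AF1 mice than in control livers. Its normalized counts were 597, 519, 475 and 595 in control replicates 1 to 4, and 948, 879, 857 and 803 in AF1 peptide replicates 1 to 4. All 4 AF1 mice lay above all 4 control mice, and the lowest AF1 mouse was 1.35-fold above the highest control mouse. Within a group the highest and the lowest mouse differed 1.26-fold (control) and 1.18-fold (AF1 peptide). The means were 546 ± 59.9 and 871 ± 60.2 (SD, n = 4 each). The log2 fold change, on the log2(normalized count + 1) scale, was 0.68 with a standard error (SE) of 0.11, or 1.6-fold. These values rest on 439 to 1040 reads per mouse. Without AF1 peptide replicate 1, the mouse with the highest count, the log2 fold change was 0.64. In whole liver, a change in the number of cells that express a gene and a change of its RNA per cell cannot be told apart.

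**Figure D2:**
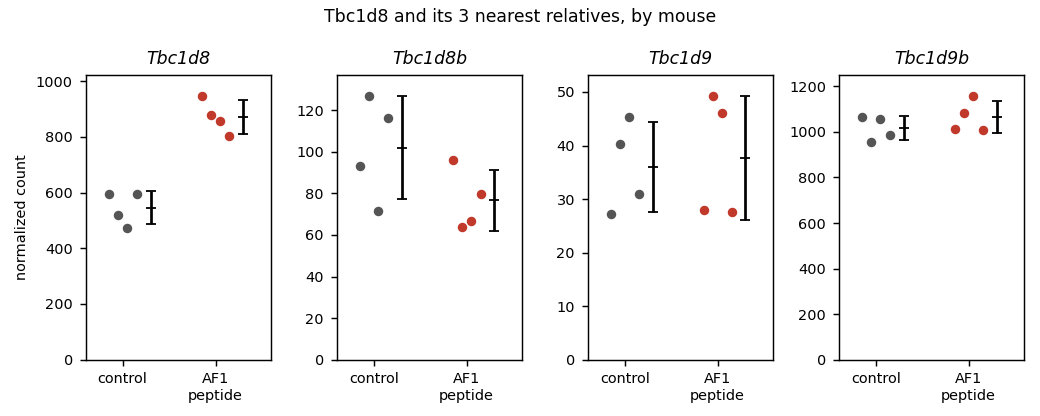
Normalized counts of Tbc1d8 and its 3 nearest relatives in each mouse. Points are mice, and the bar beside them is the mean ± SD (n = 4). The groups are apart in Tbc1d8 (475 to 597 against 803 to 948) and overlap in Tbc1d8b, Tbc1d9 and Tbc1d9b.

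Per kilobase of coding sequence, Tbc1d8 ranked 15 to 17 among the 40 members within each control mouse, and 10 or 11 within each AF1 mouse. Its share of the summed level of the family was 1.74 to 2.26% in control and 3.02 to 3.63% in AF1 mice. The summed level of the other members per kilobase was 7817 ± 188 in control mice and 7598 ± 260 in AF1 mice (SD, n = 4 each), and these groups overlapped.

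In each of the 3 relatives the groups overlapped. Tbc1d8b is the closest in sequence, and its normalized counts were 93.1, 127, 71.3 and 116 in control mice and 96.1, 63.9, 66.7 and 79.9 in AF1 mice, with a log2 fold change of -0.39 (SE 0.22). Of the AF1 mice, 2 lay below every control mouse and the others overlapped the control range. Without AF1 peptide replicate 1 the log2 fold change was -0.51, and without control replicate 3 it was -0.55. In each of these limma fits Tbc1d8b passed the threshold of p under 0.05 and 1.3-fold. Without control replicate 2 its log2 fold change was -0.28, and it was not called. Tbc1d9b had 955 to 1066 normalized counts in control and 1010 to 1159 in AF1 mice (log2 fold change 0.07, SE 0.09). Tbc1d9 was low, with 27.2 to 45.4 in control and 27.6 to 49.3 in AF1 mice (log2 fold change 0.05, SE 0.27, and 0.17 without AF1 peptide replicate 1).

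Exons of Tbc1d8 overlap those of Rpl31, a ribosomal protein gene on the opposite strand, and whether strand was used in counting is not given in the sources used here. The mean normalized count of Rpl31 was 8964 ± 820 in control and 9861 ± 693 in AF1 mice (SD, n = 4 each). Its log2 fold change was 0.14 (SE 0.11), and the groups overlapped. The part of Rpl31 reads in the Tbc1d8 values was not tested. In all, the exons of 10 of the 40 members overlap those of another gene of the table.

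Among the 38 other tested members, 0 were called at an unadjusted limma p under 0.05 with more than 1.3-fold change, beside 1.79% of all 15989 genes called higher and 1.9% called lower. The groups overlapped in all 38, where 3.9% of all genes did not overlap. Tbc1d8, whose own values brought the family into view, is left out of these counts. Of the 38, 0 had an unadjusted limma p under 0.05, where 6.19% of all genes did, and the smallest of their limma adjusted p values over all genes (Benjamini-Hochberg) was 0.763. edgeR and DESeq2 on the recovered reads likewise gave an unadjusted p under 0.05 to 0 of these 38 members, and each gene's own variance gave it to 2. The log2 fold changes of the 38 ran from -0.63 to 0.23 with a median of -0.02, and 18 were above and 20 below 0. Over the 18 alternative fits, 7 of the 39 tested members stayed above 0 and 11 below 0, and the sign of the other 21 changed in at least 1 fit. The standard errors of the 38 ran from 0.09 (Tbc1d22a) to 0.37 (Tbc1d31), and for 13 of them, Tbc1d8b, Tbc1d9, Tbc1d4 and Tbc1d24 included, a 1.3-fold difference would not have passed the test. The median of all 15989 genes was -0.01. In absolute size the median log2 fold change was 0.09 for the family and 0.14 for all genes.

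**Figure D3:**
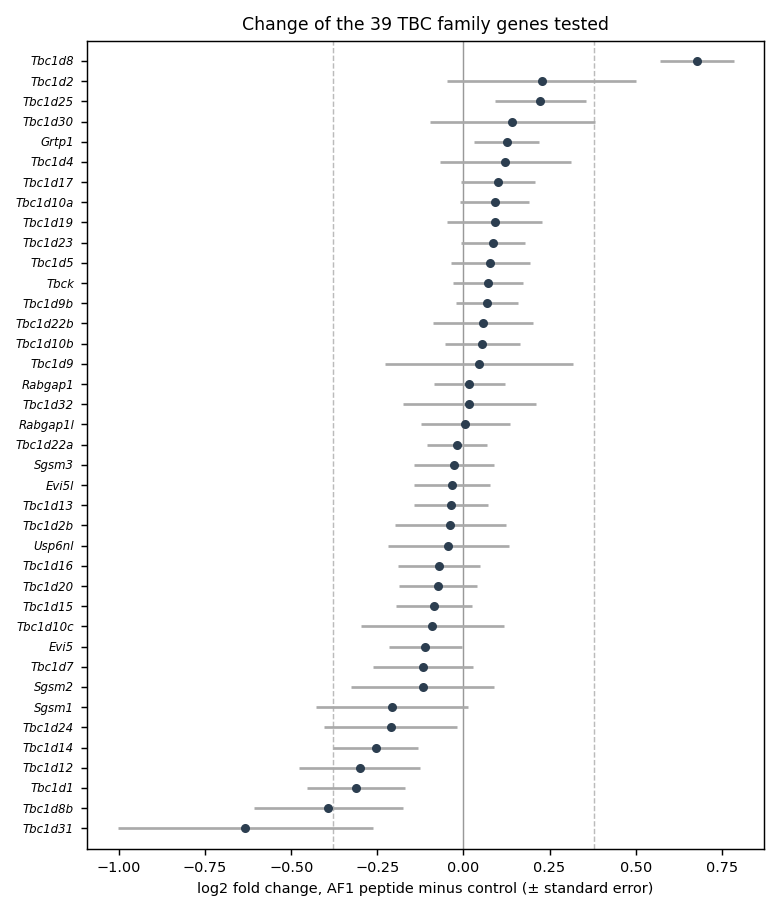
Log2 fold change (AF1 peptide minus control) of the 39 tested genes with its standard error. Dashed lines mark 1.3-fold. Tbc1d8 (0.68) lies beyond the line on the right, and Tbc1d8b (-0.39) and Tbc1d31 (-0.63) beyond that on the left.

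The member nearest to Tbc1d8 in size of change lay in the other direction. Tbc1d31, which encodes a centrosome protein needed for cilia, had 715, 551, 802 and 667 normalized counts in control mice. In AF1 mice it had 173, 473, 723 and 613. Its log2 fold change of -0.63 (SE 0.37) depended on single mice. It was -0.19 without AF1 peptide replicate 1, the mouse that stood apart over all genes, and -0.88 without AF1 peptide replicate 3, where limma called it lower. In 4 of the 18 alternative fits, Tbc1d31 came before Tbc1d8 in size, and in the other 14 Tbc1d8 was first. Tbc1d8 was chosen for its difference between these same mice, so its place by size is a description only. Among all 15989 genes it ranked 541 by absolute log2 fold change.

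Among the members tied to insulin action and glucose transporter traffic, Tbc1d1 was the most different between the groups. Its normalized counts were 213, 210, 208 and 248 in control mice and 151, 159, 218 and 184 in AF1 mice. Of the AF1 mice, 3 lay below every control mouse, and AF1 peptide replicate 3 lay within the control range. The log2 fold change was -0.31 (SE 0.14), and without AF1 peptide replicate 3 it was -0.42, called lower by limma. It was -0.24 without AF1 peptide replicate 1 and -0.25 without control replicate 4, and was not called in these fits. Tbc1d4, which encodes AS160, had 64.9 to 105 in control and 73.1 to 101 in AF1 mice (log2 fold change 0.12, SE 0.19). Tbc1d13, whose protein acts on RAB35 in GLUT4 traffic, had 452 ± 51.4 (SD, n = 4) and 439 ± 16.9 (SD, n = 4), with a log2 fold change of -0.04 (SE 0.11).

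The 9 members of endosomes, lysosomes and autophagy had log2 fold changes from -0.30 (Tbc1d12) to 0.23 (Tbc1d2), with 4 above and 5 below 0 and 0 called. Tbc1d14, whose protein binds ULK1 and RAB11 and slows autophagy, had 227, 244, 202 and 263 normalized counts in control mice and 217, 188, 187 and 189 in AF1 mice. Here 3 AF1 mice lay below every control mouse, and AF1 peptide replicate 1 lay within their range. The log2 fold change was -0.25 (SE 0.12), -0.31 without that mouse and -0.20 without control replicate 4. Leaving out AF1 peptide replicate 1 sets the groups apart by construction, and 9.16% of all genes did not overlap in that fit. Tbc1d12, which is related to Tbc1d14, had 88.5 ± 11.6 (SD, n = 4) and 71.8 ± 11.1 (SD, n = 4). Tbc1d25, a RAB33B regulator on autophagosomes, went the other way, with 113 to 141 in control and 129 to 157 in AF1 mice (log2 fold change 0.22, SE 0.13).

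Several other genes of this group regulate RAB7, which marks late endosomes, and their groups overlapped. Tbc1d5, whose protein works with retromer, had 233 ± 18.3 (SD, n = 4) and 246 ± 21.2 (SD, n = 4), with a log2 fold change of 0.08 (SE 0.11). Tbc1d15 and Tbc1d17 encode proteins that also act at mitochondria through FIS1, and their log2 fold changes were -0.09 and 0.10 (SE 0.11 in both). Tbc1d17 had 951 to 1037 normalized counts in control mice and the wider range of 888 to 1197 in AF1 mice. Tbc1d2 (Armus) was low, with 23.4 to 44.5 in control and 30.5 to 53.0 in AF1 mice. Tbc1d2b and Tbc1d16, the rest of the group and not named here for RAB7, had log2 fold changes of -0.04 and -0.07. These were 0.11 and -0.15 without AF1 peptide replicate 1.

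In the group of the endoplasmic reticulum and Golgi, the log2 fold changes of Tbc1d20, Tbc1d22a, Tbc1d22b and Tbc1d23 were -0.07, -0.02, 0.06 and 0.09, and 0 of the 4 were called. Tbc1d20 had 1356 to 1872 normalized counts in control and 1375 to 1474 in AF1 mice, so that every AF1 mouse lay within the control range. Tbc1d7, the third subunit of the TSC complex that restrains mTORC1, had 279 ± 50.6 (SD, n = 4) and 254 ± 20.4 (SD, n = 4), with a log2 fold change of -0.12 (SE 0.15). Tbck, also linked to mTOR signalling, had one of 0.07.

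The EPI64 genes Tbc1d10a, Tbc1d10b and Tbc1d10c, whose proteins act on RAB35 and RAB27A, had log2 fold changes of 0.09, 0.05 and -0.09. Tbc1d10a had 439 to 509 normalized counts in control mice and 453 to 541 in AF1 mice, with 3 AF1 mice above every control mouse. Evi5, which encodes a centrosomal RAB11 regulator, had 1264 to 1683 in control and 1326 to 1496 in AF1 mice (log2 fold change -0.11, SE 0.11). Rabgap1, which acts on RAB6, had 444 ± 34.3 (SD, n = 4) and 450 ± 36.1 (SD, n = 4), with a log2 fold change of 0.02 (SE 0.10). Usp6nl, known as RN-tre, a RAB5 regulator of growth factor receptor uptake, had 313 to 447 in control mice. It had 496 in AF1 peptide replicate 1 and 292 to 331 in the other AF1 mice. Its log2 fold change was -0.04 with and -0.21 without AF1 peptide replicate 1. Rabgap1l, Evi5l and Grtp1 had log2 fold changes of 0.01, -0.03 and 0.12.

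The 3 small G protein signalling modulators (Sgsm1, Sgsm2 and Sgsm3) had log2 fold changes of -0.21, -0.12 and -0.03. In Sgsm1 and in Sgsm2, 3 of the 4 AF1 mice lay below every control mouse and 1 lay above. The mouse above was AF1 peptide replicate 3 in Sgsm1 (141) and AF1 peptide replicate 1 in Sgsm2 (264). Without that mouse the log2 fold change was -0.42 for Sgsm1, called lower by limma, and -0.34 for Sgsm2. Leaving out the mouse above sets the groups apart by construction. In these fits 6.89% (without AF1 peptide replicate 3) and 9.16% (without AF1 peptide replicate 1) of all genes did not overlap. The log2 fold change of Sgsm2 was 0.01 without AF1 peptide replicate 3. Without AF1 peptide replicate 1, the lowest mouse in Sgsm1, its log2 fold change was -0.06, and that of Sgsm3 was 0.04. The cilium genes Tbc1d30 and Tbc1d32 had log2 fold changes of 0.14 and 0.02, and that of Tbc1d30 was 0.25 without AF1 peptide replicate 1. Tbc1d24, a gene of synaptic vesicle traffic that was second in level here, had 935 to 1269 normalized counts in control and 622 to 1212 in AF1 mice. Its log2 fold change of -0.21 (SE 0.19) was -0.02 without AF1 peptide replicate 1, the mouse with the lowest count. Tbc1d19 had a log2 fold change of 0.09.

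**Figure D4:**
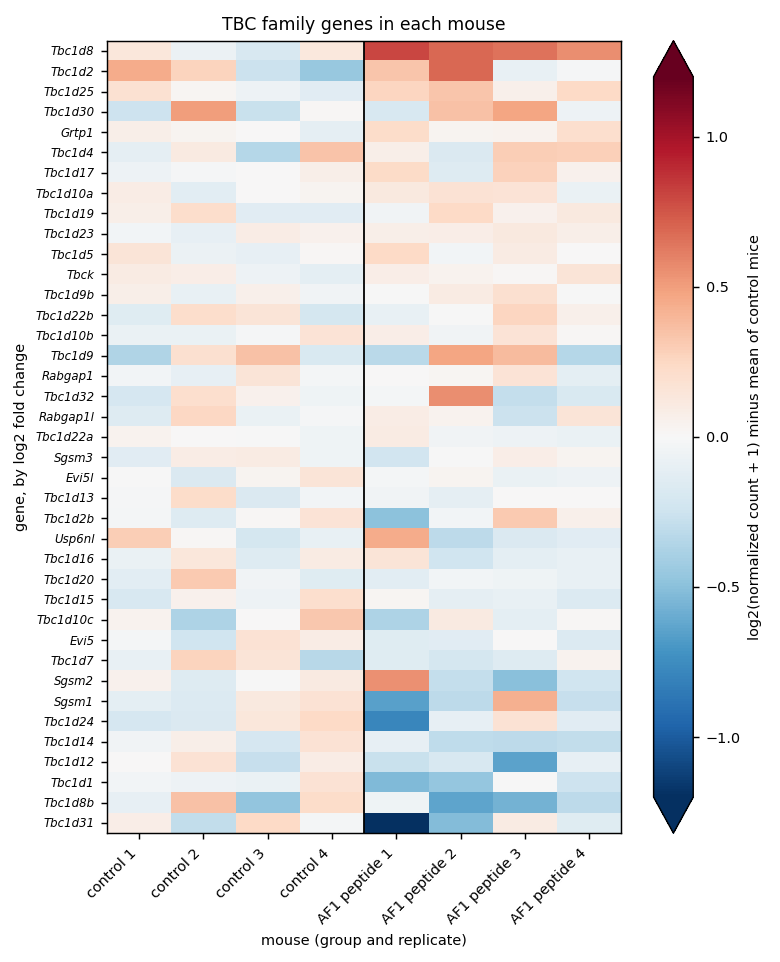
Each tested gene in each mouse, as log2(normalized count + 1) minus the mean of the control mice, ordered by log2 fold change. Red is higher and blue is lower, and values beyond the scale take its end colour. The row of Tbc1d8 is red in all 4 AF1 mice, and the strongest blue is Tbc1d31 in AF1 peptide replicate 1.

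The genes on which these proteins act, and those that load and recycle Rabs, were taken from lists of the pathway. Of 56 Rab GTPase genes in the table, 48 were tested, of which 0 were called higher and 1 lower (1.79% and 1.9% of all genes). Their log2 fold changes were above 0 in 16 and below 0 in 32 (median -0.06). Of all 15989 genes, 7704 were above and 8285 below 0 (median -0.01), and the difference in split was not tested. The called gene was Rab5a, which encodes a GTPase of early endosomes. It had 441, 504, 309 and 430 normalized counts in control mice and 334, 268, 222 and 307 in AF1 mice. The highest AF1 mouse lay above the lowest control mouse, and 3 AF1 mice lay below every control mouse. Its log2 fold change was -0.57 (SE 0.17, limma adjusted p = 0.763 over all genes). With 1 mouse left out in turn this ranged from -0.71 to -0.46, and Rab5a was called in each of these fits. The count called lower was 2 without control replicate 1 (1.67% of all genes), without control replicate 3 (2.36%) and without AF1 peptide replicate 2 (1.71%). It was also 2 with equal library totals (3.77%), and 3 without AF1 peptide replicate 3 (2.48%). The median of the list was -0.12 without control replicate 1. In 1 of the 48 genes, Rab6a, named after its values were seen, all AF1 mice were below all control mice. Its log2 fold change was -0.21 (SE 0.08), and it was not called. The groups did not overlap in 3.9% of all genes.

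Of 38 exchange factors and GTPase-activating proteins without a TBC domain, 0 were called in either direction, with a median of 0.01. Dennd4b, Dennd6b and Gapvd1 were named after their values were seen, since all AF1 mice were above all control mice in them. This held for 3 of 38 genes, with 0 in the other direction. Of all 15989 genes, 327 were apart upward and 296 downward. Their log2 fold changes were 0.38, 0.35 and 0.21, all under 1.3-fold. Without AF1 peptide replicate 1, 2 genes of this list were called higher (Dennd4b and Dennd6b) and 1 lower (Dennd6a). In that fit 2.86% of all genes were called higher and 3.07% lower. Without control replicate 3, 2 were called higher (Dennd4b and Dennd6b, beside 2.28% of all genes). Dennd4b alone was called higher without control replicate 4 (1.85% of all genes) and without AF1 peptide replicate 2 (1.72%). Mon1a alone was called higher without AF1 peptide replicate 4 (2.48%). Of the 8 genes of Rab prenylation and recycling, 0 were called (median -0.03). In that list Chml, a Rab escort protein gene also named after its values were seen, had a log2 fold change of -0.93 (SE 0.44). Its groups overlapped. Chml was called lower without AF1 peptide replicate 1 (3.07% of all genes called lower) and without control replicate 2 (1.082%). The same held with equal library totals (3.77%) and by edgeR (1.77%).

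**Figure D5:**
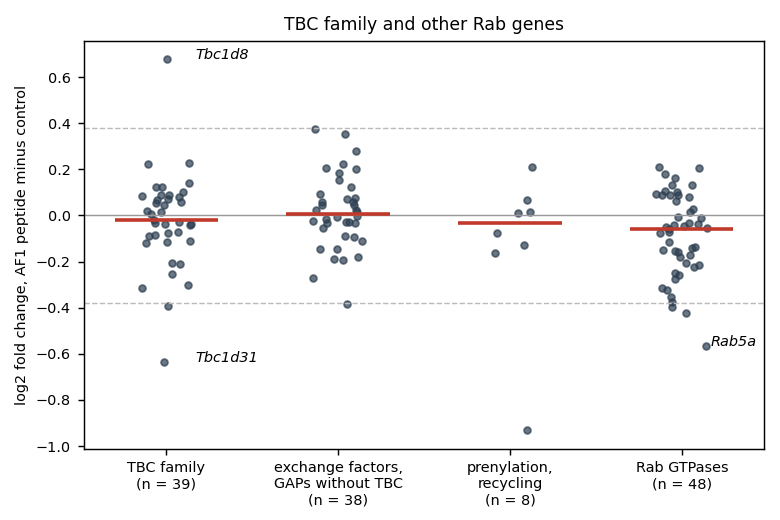
Log2 fold changes (AF1 peptide minus control) of the TBC family and of the other Rab lists. Points are genes, red lines are medians (-0.02, 0.01, -0.03 and -0.06 from left to right) and dashed lines mark 1.3-fold. Tbc1d8 is the single point above the upper line.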

How the data were processed

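Liver RNA of 4 control and 4 AF1 peptide male db/db mice was extracted with TRIzol and made into Illumina stranded mRNA libraries, 1 per mouse. The authors used TrimGalore 0.6.7 for trimming, HISAT2 for alignment, SAMtools 1.17 for sorting and GenomicAlignments for counting per gene. The submitters' processing notes give the build as mm39. The deposited signal is the normalized count, reads divided by 1 size factor per library. All values (100% of 172256, tolerance 0.01) came out as whole reads. The annotation, the use of strand and the treatment of multi-mapped reads are not given in the sources used here.

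The log2(normalized count + 1) of the 15989 genes with a mean of at least 10 was compared with limma 3.58.1 (R 4.3.3, trended variances). A gene was called at an unadjusted p under 0.05, the threshold of the study, with more than 1.3-fold change, and p values were adjusted over all genes by the Benjamini-Hochberg method. edgeR 4.0.16 and DESeq2 1.42.0 were run on the recovered reads. The test was checked on simulated counts. Fold changes on this scale understate those of low genes. The titles say biological replicates, so p values measure the spread between mice. Replicates of a group differed by a chi-square of 14.6 to 312 per degree of freedom, so none was a duplicate.

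Members, gene lists and alternatives were chosen with earlier results of these data known, and the alternatives for the other Rab lists after seeing the data. Named members are Tbc1d8, its 3 nearest relatives, those called or not overlapping, the 5 highest and 3 lowest in level, and 12 with known roles, and the rest are given by group. Tbc1d12, Tbc1d14, Tbc1d25, Tbc1d31, Sgsm1 and Sgsm2 were given by mouse or range after their values were seen. Coding lengths and proteins came from GENCODE M21 (GRCm38) by symbol, and promoters from RefSeq GRCm38.p6. Gene coordinates are not given, because this build differs from that of the table. Alignments used Biopython 1.88 (BLOSUM62).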

Additional observations from a re-analysis of the deposited data

Results flagged for a closer look

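For every tested member, the highest and the lowest mouse of a group were set against the others, and a mouse stood apart where its gap to the nearest mouse, over the range, exceeded Dixon's 95% critical value. This occurred in 2 of 78 groups, where chance gives about 3.9. Tbc1d14 in AF1 peptide replicate 1 (217 normalized counts) lay above the other AF1 mice (up to 189), with a gap over range of 0.928. Tbc1d1 in control replicate 4 (248) lay above the other control mice (up to 213), with a gap over range of 0.854.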

How the results depend on the processing

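The log2 fold change of Tbc1d8 was 0.61 to 0.72 with 1 mouse left out in turn and 0.59 to 0.68 under the other alternatives, the lowest with libraries rescaled to equal totals. No other member was called higher in any of the 18 alternatives (0), where 0.763% to 2.86% of all genes were called higher. Equal totals moved the median of the 39 members from -0.02 to -0.11 (all genes from -0.01 to -0.10) and gave 1 member called lower (Tbc1d31, beside 3.77% of all genes). With 1 mouse left out, the median was -0.0396 to 0.0281, and it was above 0 without control replicate 2 (0.0281), without AF1 peptide replicate 1 (0.0209) and without control replicate 4 (0.000865). The count called lower was 0 to 3 (Tbc1d8b without control replicate 3 or AF1 peptide replicate 1, and Sgsm1, Tbc1d1 and Tbc1d31 without AF1 peptide replicate 3), beside 2.36%, 3.07% and 2.48% of all genes in these fits. The groups of 1 to 4 members did not overlap, and Tbc1d8 is counted among them in all 18 alternatives. There were 4 without control replicate 3 (8.85% of all genes) and 4 without AF1 peptide replicate 3 (6.89%). There were 3 without control replicate 1 (6.1%), 3 without AF1 peptide replicate 1 (9.16%) and 2 without AF1 peptide replicate 4 (8.5%). The causes were not tested. Of 342 values of the 19 other members named by rule, 339 kept their call under alternatives, and 3 were newly called (Tbc1d8b in 2 settings, Tbc1d1 in 1). These 19 leave out the members given after their values were seen. Of those, Tbc1d31 and Sgsm1 were called lower in the fits above. Tbc1d14, Tbc1d25 and Sgsm2 passed an unadjusted p under 0.05 in at least 1 limma fit, without a 1.3-fold change. The deviations of same-numbered mice from their group means correlated at -0.064 to 0.235 across genes, so the numbers were not taken to pair the mice. With the replicate block the log2 fold change of Tbc1d8 was 0.68, and 0 of the other members were called, as without it. The standard error was largest for Tbc1d31 (0.37), Tbc1d2 (0.27) and Tbc1d9 (0.27).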

Other observations

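AF1 peptide replicate 1 was the highest or the lowest of the 8 mice in 14 of the 39 tested members (35.9%), against 49.3% of all tested genes. It was lowest in Tbc1d31, Tbc1d24, Tbc1d2b and Sgsm1 and highest in Tbc1d8, Sgsm2 and Usp6nl, among others. Control replicate 4 was at an end as often (14 members, 35.9%, against 22.3% of all genes). Control replicate 1 was at an end in 2 members (5.13%, against 16.0%).

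Npas2, a clock gene beyond Rpl31 next to Tbc1d8 in the RefSeq order, had a mean normalized count of 19.6 ± 4.97 in control and 12.8 ± 6.11 in AF1 mice (SD, n = 4 each), with overlapping groups. Cnot11, on the other side, had 435 ± 65.1 and 436 ± 55.6.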
